A study of Drosophila melanogaster with 21 samples.

Results

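The earliest arrays of a CoVa RNAi time course in Drosophila S2 cells are described here. They are 6 of the 21 arrays of the series, and form 3 matched pairs. Each pair holds 1 array of cells given interfering RNA against CoVa and 1 array of cells given interfering RNA against GFP, the control, from the same experiment and time. Experiment 1 was sampled at 48 hr, and experiments 2 and 3 at 72 hr, after calcium phosphate transfection of the RNA. The members were chosen by the time and experiment in the array labels and not by any measured value. S2 is an established line derived from embryos, has traits of blood cells, and carries no GFP transcript of their own, so the control receives RNA with no intended target. The later arrays, at 96, 120 and 168 hr, and 1 array of untransfected cells of experiment 1 at 48 hr served only for comparison. The question was which genes differed earliest, and which did so in all 3 pairs.

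The nuclear genome encodes CoVa, 1 of the subunits of cytochrome oxidase. This enzyme, complex IV, is the last in mitochondrial electron transport and passes electrons to oxygen and helps to build the proton gradient used for ATP synthesis. When electron transport slows, NADH is not reoxidized in the mitochondria. Cells can then regenerate NAD+ by reducing pyruvate to lactate and can make ATP from glycolysis, while glutamate and other amino acids feed the citric acid cycle at other points. Many animal cells answer respiratory defects with changes of nuclear transcription, known as retrograde signaling.

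The targeted transcript was not lower in all 3 pairs. In experiment 1 the CoVa signal was 7336 with GFP RNAi and 8364 on the array labelled CoVa RNAi, 14% higher. In experiment 2 it was 8456 and 3361, a decrease by 60.3%, and in experiment 3 it was 7794 and 5864, a decrease by 24.8%. The 2 groups therefore overlapped, and the untransfected array, at 7633, lay among the GFP arrays. The mean log2 difference was -0.51 ± 0.76 (SD, n = 3 pairs), with an adjusted p of 0.502 by limma and a 2-sided p of 0.5 by an exact sign-flip test over the pairs, which cannot go below 0.25. Since the target was not lower on the array labelled CoVa RNAi at 48 hr, the CoVa arrays are named by their labels throughout. Some of the counts, not all, are also given without experiment 1. At 168 hr the CoVa signal was lower in all 3 experiments, by a mean log2 of 2.06. The change from the early pairs to 168 hr was -1.54 (limma, adjusted p = 0.0403, between 0.0292 and 0.410 over the alternatives tried, and 0.134, 0.210 and 0.0459 without experiment 1, 2 or 3).

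A pair resembled itself more than the experiments resembled each other. Over the 8685 probesets that reached a signal of 100 on at least 3 of the 6 arrays, the log2 signals of the matched arrays correlated at 0.986 to 0.993, arrays of experiments 1 and 2 at 0.971 to 0.979, and arrays of experiment 3 with the others at 0.844 to 0.894. Both arrays of experiment 3 stood apart. Its GFP array correlated with the arrays of experiments 1 and 2 at 0.844 to 0.861, and its array labelled CoVa RNAi at 0.879 to 0.894. On the GFP array 1320 probesets (15.2%) were under 0.5 times the signal of both other GFP arrays, and 232 were over 2 times. The same count was not made for its partner. Ratios of the 3′ to the 5′ control probesets, a check of RNA integrity, overlapped between groups for actin (1.70 to 1.83 with GFP RNAi, 1.51 to 1.94 on the arrays labelled CoVa RNAi) and for GAPDH. For eIF-4a they did not, at 2.60 to 2.96 and 1.97 to 2.57. The part of these differences in the results below was not tested. Of 11 plasmatocyte marker genes with a probeset, 7 reached 100 on all 6 arrays, srp and crq among them, whereas Hml, NimC1 and Sr-CI reached it on none. Of the markers of other cell types, PPO2 of crystal cells, PPO3 and mys of lamellocytes and bam of the germ line reached 100 on all 6 arrays, and no neuron, fat body or muscle marker did. However, elav and brp of neurons reached it on 4 and 2 arrays and Lsp2 of the fat body on 5, and only 1 muscle marker had a probeset.

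No probeset was called early in the main fit. With 3 pairs and 2 residual degrees of freedom, this does not show that the early effect was small. With log2(signal + 32) values and the experiment as a block, limma called 0 probesets higher and 0 lower (0.0% of those tested in each direction) at an adjusted p of 0.05. The smallest adjusted p was 0.108, shared by the probesets of ImpL3, CG7841 and CG4611. At an unadjusted p under 0.05 there were 650 probesets with higher (7.48%) and 461 with lower (5.31%) signal on the arrays labelled CoVa RNAi. Without any effect a share of 0.05 would pass over both directions together, and probesets are not independent. Other settings made calls: a common spread estimated from all 20 arrays of both treatments called 18 higher (0.207%) and 6 lower (0.0691%), 8 of the probesets described below among them, a variance trend with intensity called 5 and 1, and scaling to a common median called 32 and 36. The p-values measure the spread between 3 independent time courses, of which 1 was sampled at another hour.

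A total of 15 probesets differed by at least 1.5-fold, on the log2(signal + 32) scale that understates differences of dim probesets, in the same direction in each of the 3 pairs, 8 higher (0.0921% of 8685) and 7 lower (0.0806%) on the arrays labelled CoVa RNAi. These values come from the same arrays as the choice and are a description. At 2-fold per pair only ImpL3 (0.0115%) was left among the higher and only Gdh and Nup50 (0.023%) among the lower probesets. The higher members closest to the limit were unc-13, 1.54-fold in its smallest pair, inside, and CG10508, 1.43-fold, outside. On the lower side CG44014 was inside at 1.51-fold and btn outside at 1.495-fold. Over experiments 2 and 3 alone, without the 48 hr pair, 28 probesets were higher and 17 lower by this rule. Signals below are given in the order of experiments 1, 2 and 3.

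**Figure D1:**
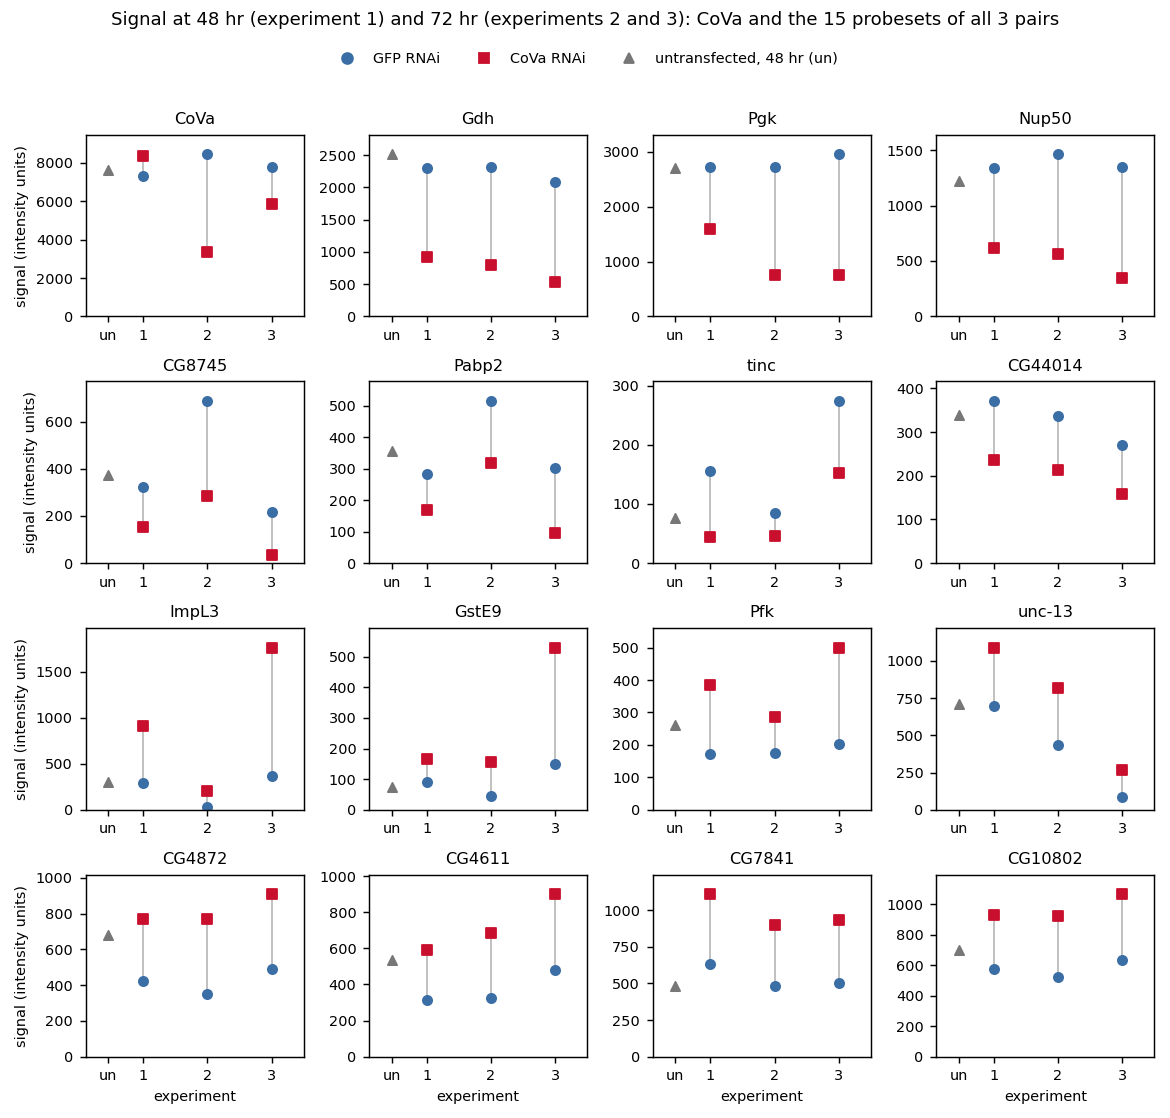
Signal (intensity units, linear axis from 0, 1 dot per array) of CoVa and of the 15 probesets that differed at least 1.5-fold in all 3 pairs, with GFP RNAi as circles, arrays labelled CoVa RNAi as squares and the untransfected array as a triangle, and lines joining the arrays of a pair. CoVa itself was higher in experiment 1 and lower in experiments 2 and 3, whereas Gdh lay at 2087 to 2318 on the GFP arrays and at 530 to 923 on their partners.

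The 3 lower probesets with the highest signals belong to enzymes of central metabolism and to the nuclear pore. Gdh, glutamate dehydrogenase, which turns glutamate into the citric acid cycle intermediate alpha-ketoglutarate, had signals of 2299, 2318 and 2087 with GFP RNAi and 923, 792 and 530 on the arrays labelled CoVa RNAi. All 3 of the latter lay below the 10 GFP arrays of the whole series, of which the lowest was at 2087, and below the untransfected array at 2517. The mean log2 difference was -1.57 ± 0.32 (SD, n = 3 pairs; limma, adjusted p = 0.123, between 6.12e-05 and 1.00 over the alternatives).

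Pgk, phosphoglycerate kinase, an ATP-producing step of glycolysis, had signals of 2719, 2715 and 2957 with GFP RNAi. The arrays labelled CoVa RNAi read 1584, 755 and 755, so that the groups did not overlap and the 48 hr pair differed least. Its mean log2 difference was -1.50 ± 0.64 (limma, adjusted p = 0.230). Nup50, a component of the nuclear basket of the pore that takes part in protein import, read 1335, 1463 and 1352 with GFP RNAi and 617, 559 and 345 on the arrays labelled CoVa RNAi. These groups did not overlap either, and the lowest of all 10 GFP arrays was at 1121. The mean log2 difference was -1.43 ± 0.41 (limma, adjusted p = 0.213).

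The other 4 lower probesets had dimmer signals, and 2 of them were not matched by other probesets of their gene. CG8745 read 323, 688 and 216 with GFP RNAi and 155, 285 and 33.2 on the arrays labelled CoVa RNAi. Each pair differed in the same direction, but the groups overlapped because the GFP array of experiment 2 and its partner were both high. CG44014 read 371, 338 and 271 with GFP RNAi and 235, 213 and 159 on the others, without overlap and with nearly the same log2 difference in each pair (-0.62 ± 0.04). Of its other 2 probesets 1 differed by -0.66, -0.54 and -0.59 and the other by -0.19, -0.21 and -0.42.

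Pabp2, the nuclear poly(A)-binding protein that controls the length of poly(A) tails, read 283, 515 and 301 with GFP RNAi and 169, 319 and 94.9 on the arrays labelled CoVa RNAi. The 2 other Pabp2 probesets, with signals up to 3193, differed by -0.13, 0.06 and 0.05 and by -0.05, 0.23 and 0.62, so the lower signal was seen with 1 probeset of 3. tinc, tincar, a membrane protein known from development of the eye, read 155, 84.6 and 274 with GFP RNAi and 44.1, 45.2 and 152.5 on the arrays labelled CoVa RNAi. With a group mean of 80.6, the size of this difference is uncertain. Of its 4 other probesets, 1 passed the filter on low signals, and it differed by -0.38, 0.11 and -0.37.

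Among the higher probesets ImpL3 had the largest mean difference. ImpL3, now named Ldh, is lactate dehydrogenase, which reduces pyruvate to lactate and regenerates NAD+. It read 291, 34.6 and 373 with GFP RNAi and 914, 205 and 1762 on the arrays labelled CoVa RNAi, so each pair was far apart while the groups overlapped through the low level of experiment 2. The mean log2 difference, 1.84 ± 0.30 (limma, adjusted p = 0.108, between 2.99e-05 and 1.00 over the alternatives), was the largest of the 15. The GFP array of experiment 2 was under a signal of 100, where the size of a difference is less certain.

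Pfk, phosphofructokinase, the main control step of glycolysis, read 171, 174 and 204 with GFP RNAi and 383, 288 and 500 on the arrays labelled CoVa RNAi. The groups did not overlap, but the untransfected array, at 260, lay between them, and the highest of the 10 GFP arrays reached 369. The mean log2 difference was 0.95 ± 0.28 (limma, adjusted p = 0.213). GstE9, a glutathione transferase of the class that conjugates toxic and oxidized compounds, read 91.1, 46.0 and 149.8 with GFP RNAi and 166.5, 155.7 and 529 on the arrays labelled CoVa RNAi. A brighter probeset that the platform annotation also gives to GstE9, but the study's gene table to GstE8, read 566, 404 and 549 against 645, 610 and 985, higher in each pair and without overlap, with a mean log2 difference of 0.51 ± 0.32. With GFP signals under 100 in experiments 1 and 2, the larger value of the dim probeset, 1.19 ± 0.47, is uncertain.

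The remaining 5 higher probesets had mean log2 differences of 0.72 to 0.93. CG7841 read 631, 482 and 501 with GFP RNAi and 1110.0, 897 and 934 on the arrays labelled CoVa RNAi, a mean log2 difference of 0.83 ± 0.04 (limma, adjusted p = 0.108). CG10802 read 574, 521 and 631 against 927, 921 and 1064, a difference of 0.72 ± 0.06. CG4611 read 314, 327 and 478 against 591, 688 and 900.5, a difference of 0.91 ± 0.08. These 3 genes are known here by their annotation numbers alone, and in each the groups did not overlap.

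CG4872 read 423, 349 and 488 with GFP RNAi and 768, 772 and 908 on the arrays labelled CoVa RNAi, a mean log2 difference of 0.91 ± 0.14. The untransfected cells read 683 for CG4872 and 534 for CG4611, in both cases nearer to the partner labelled CoVa RNAi at 48 hr than to the GFP array of that experiment, which differed from the untransfected array by 0.65 and 0.71 on the log2 scale. unc-13, which primes synaptic vesicles for release in neurons, read 696, 438 and 87.9 with GFP RNAi and 1089.6, 816 and 268 on the arrays labelled CoVa RNAi, with log2 differences of 0.62, 0.85 and 1.32. It was the only one of the 15 among the probesets that the GFP array of experiment 3 held under 0.5 times both other GFP arrays, and its groups overlapped.

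In all, the 3 arrays labelled CoVa RNAi did not overlap the 3 GFP arrays for 10 of the 15 probesets, against 2.99% of all probesets on the higher and 1.68% on the lower side. For 9 of them (Gdh, Pgk, Nup50, CG44014, CG10802, CG7841, CG4611, CG4872 and the dim GstE9 probeset) they also lay outside all 10 GFP arrays and the untransfected array, as they did for 1.17% of all probesets upward and 0.576% downward. Since the 15 were chosen on these arrays, the counts describe them and support nothing further.

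Taken singly, the pairs differed in how many probesets passed 1.5-fold. At 48 hr in experiment 1 these were 102 higher (1.17%) and 62 lower (0.714%). At 72 hr they were 45 (0.518%) and 65 (0.748%) in experiment 2, and 365 (4.20%) and 62 (0.714%) in experiment 3. Of the 365, 250 (68.5%) were probesets with a low signal on the GFP array of experiment 3 as defined above, as were 15.2% of all 8685. The same GFP signal enters that definition and the 1.5-fold rule, so a larger share among the 365 is partly built in and explains nothing. The split between higher and lower depended on the scaling of the arrays. Experiment 1 gave 74 and 71 after quantile normalization and 76 and 112 after scaling to a common median, experiment 2 gave 91 and 41 after the latter, and experiment 3 gave 306 and 123 after the former. The log2 differences of the 2 pairs at 72 hr correlated at 0.528 over the 8685 probesets. Those of the 48 hr pair correlated at 0.195 and 0.160 with experiments 2 and 3. Probesets are not independent replicates, and the pairs share the platform and, at 72 hr, the hour.

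Reading a pair that took no part in the choice gives a view free of selection on that pair. Of the 28 probesets that were at least 1.5-fold higher in both pairs at 72 hr, 26 (92.9%) were higher in the 48 hr pair too, where 48.6% of all probesets were, and 8 (28.6%) passed 1.5-fold there, against 1.17% of all. Of the 17 that were lower at 72 hr, 16 (94.1%) were lower at 48 hr, against 51.4% of all, and 7 (41.2%) passed 1.5-fold, against 0.714%. The medians in the 48 hr pair were 0.36 and -0.56, and -0.01 over all probesets. Conversely, of the 102 probesets at least 1.5-fold higher at 48 hr, 52 (51.0%) were higher in experiment 2, against 47.9% of all, and 10 (9.80%) passed 1.5-fold there, against 0.518%. In experiment 3, 70 (68.6%) were higher, against 63.0%, and 16 (15.7%) passed, against 4.20%. Of the 62 lower at 48 hr, 46 (74.2%) were lower in experiment 2, against 52.1% of all, and 7 (11.3%) passed 1.5-fold, against 0.748%. In experiment 3, 44 (71.0%) were lower, against 36.9%, and 11 (17.7%) passed, against 0.714%.

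**Figure D2:**
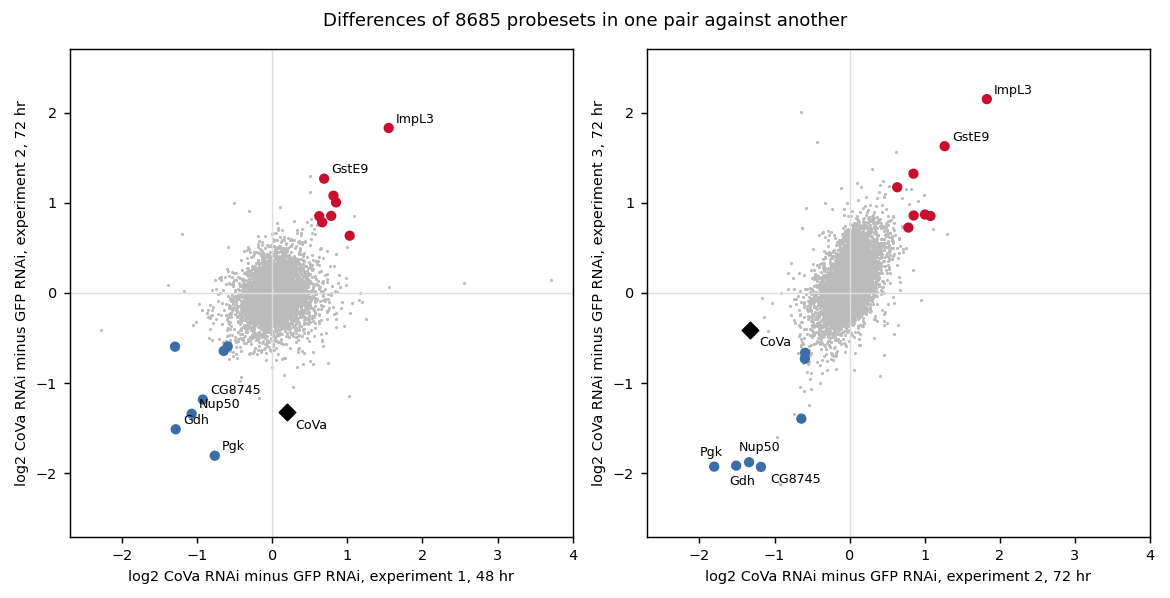
Log2 difference between the array labelled CoVa RNAi and its GFP partner for 8685 probesets (grey dots), experiment 2 against experiment 1 on the left and experiment 3 against experiment 2 on the right, with the 8 higher and 7 lower probesets of all 3 pairs as red and blue dots and CoVa as a diamond. The 2 pairs at 72 hr share a slope (correlation 0.528) that is weaker against the 48 hr pair (0.195). CoVa, at 0.19 and -1.32, has opposite signs in the left panel. The other marked points were chosen for the same sign in every pair.

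Single pairs also held large differences that the others lacked. Bdp1, a subunit of the RNA polymerase III factor TFIIIB, read 24.3 on the GFP array of experiment 1 and 708 on its partner, while the other 4 arrays read between 621 and 810.5 and the untransfected array 600.5. In total 12 probesets differed 2-fold in experiment 1 and under 1.5-fold in the others, 4 in experiment 2, CoVa being 1 of these, and 16 in experiment 3. Bdp1 was chosen after its values were seen. Hsp26, a small heat shock protein, differed in direction between the pairs. It read 11927, 1320.0 and 9.60 with GFP RNAi, the last being the lowest value of the table, and 10763, 831 and 135 on the arrays labelled CoVa RNAi, so that the log2 difference was -0.15, -0.65 and 2.01.

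Of the 29 functional gene lists, glycolysis had the median farthest from 0, although without experiment 3 it was at 0.252 and that of glycogen and sugar transport at 0.257. Of its 10 measured genes none passed the limma threshold, 9 were higher in all 3 pairs and 1, Pgk, was lower in all 3, beside 22.1% and 16.2% of all probesets (1923 and 1405, or 1562 and 1806 after quantile normalization). The median log2 difference was 0.32, with 0.23, 0.26 and 0.42 in experiments 1, 2 and 3, beside medians of -0.01, -0.01 and 0.06 over all probesets. After ImpL3 and Pfk came Tpi, triose phosphate isomerase, which read 2179, 2157 and 2254 with GFP RNAi and 3262, 2772 and 3631 on the arrays labelled CoVa RNAi, and whose groups did not overlap, although the 10 GFP arrays of all times reached 3284. Pglym78, phosphoglycerate mutase, differed by 0.34 ± 0.07, Pgi by 0.33, Ald1, aldolase, by 0.32 and Eno, enolase, by 0.28, while Hex-A, a hexokinase, differed by 0.17 and Gapdh1 by 0.11. Pgk thus lay below 0 in a pathway whose neighbours on either side, Gapdh1 and Pglym78, lay above 0. This describes the Pgk transcript and not the phosphoglycerate kinase step as a whole. The study reports that CG9961, a gene similar in sequence to Pgk, was upregulated by the CoVa knockdown. CG9961 is not among the measured genes of this list, and its early difference was not tested here. Without any 1 of the 3 experiments, 9 genes were higher and 1 lower in both remaining pairs.

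Genes of glycogen and sugar transport showed a similar median, 0.31, over 9 measured genes, of which none passed the limma threshold. In all 3 pairs 5 were higher and 2 lower, beside 22.1% and 16.2% of all probesets. Glyp, glycogen phosphorylase, which releases glucose units from glycogen, read 195, 219 and 181 with GFP RNAi and 378, 306 and 386 on the arrays labelled CoVa RNAi. AGBE, the branching enzyme of glycogen synthesis, read 776, 841 and 907 against 1259.6, 1109 and 1310.2, and Glys, glycogen synthase, differed by 0.36 ± 0.10. The early groups did not overlap for these 3 genes, but the 10 GFP arrays of all times reached 464 for Glyp, above all 3 arrays labelled CoVa RNAi, 1182 for AGBE, above 1 of them, and 3380.0 for Glys, above 2. Tret1-1, a trehalose transporter, read 155, 64.1 and 157 against 235, 138 and 388 and overlapped. UGP, which makes UDP-glucose, was lower in all 3 pairs, by 0.49, 0.10 and 0.16 on the log2 scale.

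The list for glutamate, proline and Pepck went the other way in its leading genes, with none of 13 past the limma threshold and a median of -0.08. In all 3 pairs 4 were higher and 7 lower, beside 22.1% and 16.2% of all probesets. After Gdh came CG4829, annotated as a gamma-glutamyl transferase, which read 844, 716 and 196 with GFP RNAi and 577, 430 and 112 on the arrays labelled CoVa RNAi, a log2 difference of -0.63 ± 0.09 in which the groups overlapped through the low level of experiment 3. Got1, the cytosolic aspartate transaminase, differed by 0.36 ± 0.12 and P5CDh1, of proline breakdown, by 0.29 ± 0.13, so the list moved in both directions. In the citric acid cycle 9 of 14 genes were higher in all 3 pairs and 0 lower, none past the threshold, with small values led by Idh, an NADP-dependent isocitrate dehydrogenase, at 0.30 ± 0.16, and a median of 0.11.

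Subunits of the respiratory chain were near 0. The medians were 0.02 over 25 complex I genes, -0.03 over 17 genes of complexes III and IV and 0.02 over 12 genes of ATP synthase, beside 0.02 over all probesets. A few members lay outside. ND-B14 of complex I differed by -0.20, -0.50 and -0.49. ATPsyndelta, the delta subunit of ATP synthase, read 3454, 2356 and 3017 with GFP RNAi and 4924, 5144 and 4957 on the arrays labelled CoVa RNAi, a log2 difference of 0.78 ± 0.31 without overlap, but the untransfected array stood at 4864, with the arrays labelled CoVa RNAi. Mitochondrial ribosomal proteins (56 genes, median -0.03) and cytosolic ribosomal proteins (27 genes, median -0.01) had no member at an unadjusted p under 0.05. Nup50 was alone in its list of 30 nuclear pore and import genes, whose median was 0.06, and the next by size was Kap-alpha3, an importin, at 0.43 ± 0.30.

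Stress and growth lists had smaller medians. Their counts stand beside 22.1% of all probesets higher and 16.2% lower in all 3 pairs (1923 and 1405, or 1562 and 1806 after quantile normalization). In the list of ATF4 targets and serine synthesis 8 of 15 genes were higher and 0 lower in all 3 pairs, with a median of 0.14 (0.07, 0.16 and 0.18 in experiments 1, 2 and 3). It was led by Alr, a sulfhydryl oxidase of the mitochondrial intermembrane space, at 0.57 ± 0.28 and by Thor, the translation inhibitor 4E-BP, at 0.44 ± 0.28. Of 18 cytosolic aminoacyl-tRNA synthetases 12 were higher and 1 lower in all 3 pairs, with a median of 0.08 and a highest member at 0.29. Of 23 genes of DNA replication and histones 16 were higher and 1 lower, with a median of 0.09 (0.08, 0.16 and 0.12). Medians of the heat shock list were -0.05, 0.00 and 0.26 in experiments 1, 2 and 3. Those of the RNAi machinery and antiviral list were 0.01, 0.01 and 0.32, and those of the glutathione transferase and Keap1-cnc list -0.04, 0.19 and 0.30. Each was thus highest in experiment 3, of which both arrays stood apart, and the part of that difference was not tested. The 5 measured genes of the Hif pathway had 0 members of 1 sign in all 3 pairs. Over experiments 2 and 3 alone, 38.6% of all probesets were higher and 27.6% lower in both pairs. There the ATF4 list had 11 higher and 3 lower genes, the synthetases 12 and 1. DNA replication and histones had 18 and 1, and the Hif pathway 2 and 0.

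**Figure D3:**
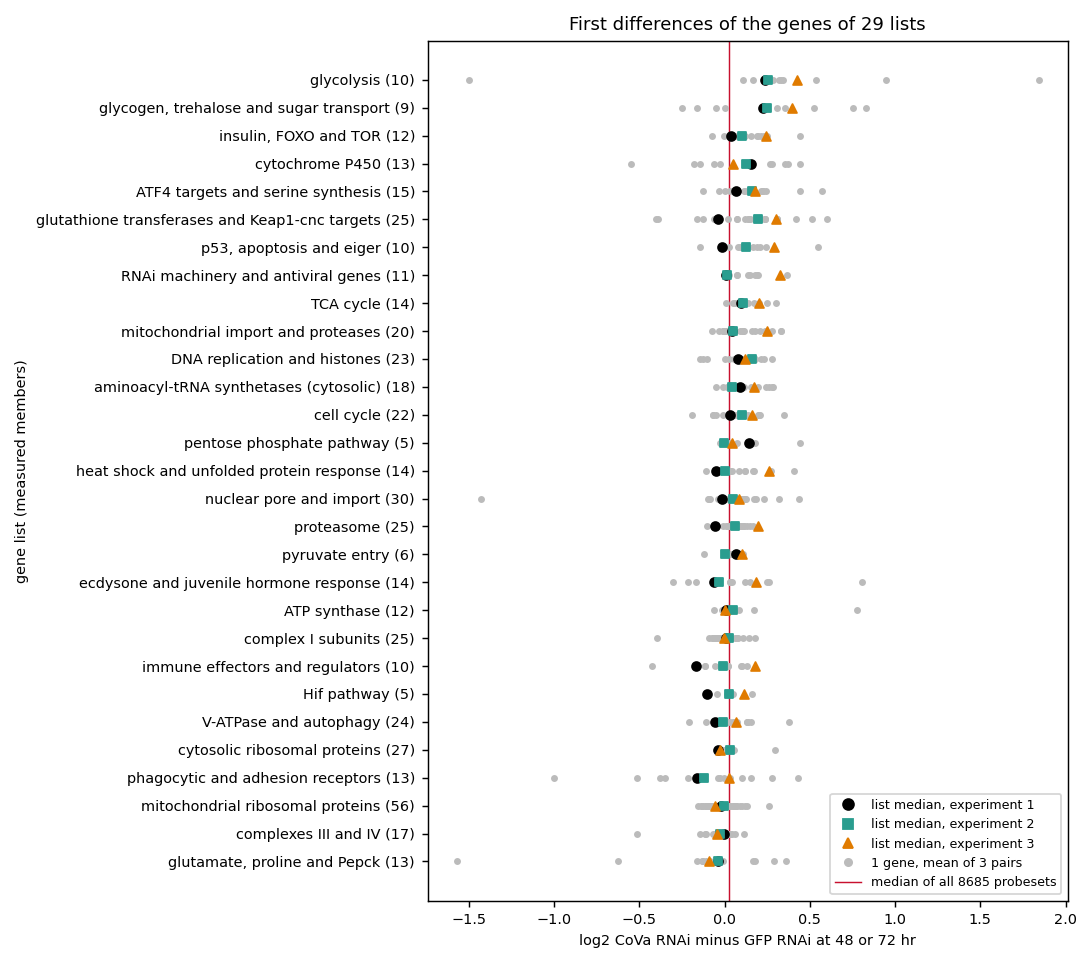
Log2 differences of the genes of 29 lists at 48 or 72 hr, with each gene's mean of 3 pairs as a grey dot, the list median in each experiment as a black circle, a green square or an orange triangle, and the median of all 8685 probesets (0.02) as a red line. Glycolysis (medians 0.23, 0.26 and 0.42) and sugar transport stand to the right in every experiment, with Pgk and ImpL3 at the far ends of the glycolysis row.

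Of the phagocytic receptors, NimC4, which takes up apoptotic cells, read 345, 672.5 and 376 with GFP RNAi and 246, 327 and 103 on the arrays labelled CoVa RNAi, a log2 difference of -1.001 ± 0.58 without overlap. In such bulk samples, fewer cells of a type and less RNA per cell cannot be told apart. The untransfected array, at 302, lay between both arrays of experiment 1. NimC4 is also a plasmatocyte marker. Of the 8 plasmatocyte markers past the filter, 2 were lower and 0 higher in all 3 pairs, beside 16.2% and 22.1% of all probesets. Their summed signal ranged from 3285 to 8178 with GFP RNAi and from 3110 to 7594 on the others. Ama, a secreted cell adhesion protein, differed by -0.51 ± 0.22. JhI-26, a gene inducible by juvenile hormone, read 538, 408 and 442 against 779, 711 and 1025, higher in each pair without overlap at 0.81 ± 0.33.

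The 22 genes that the study lists as most altered over all times were chosen partly on these 6 arrays, so their early values are no independent evidence. Of these, 21 had a probeset that the platform annotation or, where that gave no gene, the study's table assigned to 1 gene, and 20 had one past the filter. The probesets of the remaining gene match several genes in the annotation and were not used. At the early times 15 of the 20 were higher and 4 lower in all 3 pairs, beside 22.1% and 16.2% of all probesets. None was past the limma threshold, and the median was 0.48. A ratio of 5 to 4 in every pair was passed by 8 and 4, beside 0.495% and 0.553% of all. For GstE9 these counts used the brighter probeset, which the study's table gives to GstE8 and which differed by 0.18 in its smallest pair. The dim probeset, which that table gives to GstE9, differed by 0.69 in its smallest pair and was not counted. Naprt, which starts NAD synthesis from nicotinic acid, read 629, 587 and 642 with GFP RNAi and 992, 837 and 1118 on the arrays labelled CoVa RNAi. CG2017 read 838, 625 and 693 against 1144.5, 942 and 1093, and neither overlapped. Others of the list were close to their control at this time. Cyp6a23, a cytochrome P450, read 111, 146 and 176 against 127, 155 and 217, a log2 difference of 0.16 ± 0.10 that had grown to 3.63 at 168 hr (limma, change 3.46, adjusted p = 0.00113). Ugt302C1 was the exception in direction, at 0.46, -0.29 and 0.58. MFS3, a transporter of the major facilitator family, did not reach a signal of 100 on enough arrays to be tested.

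At a lower limit, a ratio of 5 to 4 in every pair, there were 43 higher (0.495%) and 48 lower probesets (0.553%), of which 15 are those above. Of these, r and bor were chosen after their values were seen. r (rudimentary), the enzyme that starts pyrimidine synthesis, read 513, 571 and 547 with GFP RNAi and 790, 983 and 785 on the arrays labelled CoVa RNAi. bor, a mitochondrial AAA ATPase, read 2422, 2417 and 2772 against 3111, 3572 and 3936. CG8036, a transketolase and the leading gene of the 5 measured in the pentose phosphate list, read 3482, 3321 and 3745 against 4570, 4938 and 4871. None of these 3 pairs of groups overlapped, although the untransfected array, at 859 for r and 4405 for CG8036, was again above the GFP array of experiment 1. For r it was also above the arrays labelled CoVa RNAi of experiments 1 and 3, as was the highest of the 10 GFP arrays, at 792. For bor and CG8036 the arrays labelled CoVa RNAi lay above all 10 GFP arrays and the untransfected array.

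The 14 later arrays took no part in the choice of the 15 probesets, though they come from the same 3 time courses. In the 7 later pairs 13 of the 15 kept their direction every time, and 12 passed 1.5-fold in all 7. At 168 hr 6 of the 8 higher and 6 of the 7 lower ones passed it in all 3 experiments, as 4.58% and 3.21% of all probesets did. Of all 8685 probesets, signed by their early mean, 2596 kept their direction in all 7 and 205 passed 1.5-fold. The 8 higher probesets had median log2 differences between 1.54 and 2.42 in the later pairs, and the 7 lower probesets, with the sign turned, between 1.16 and 1.62. tinc and CG4872 did not keep their direction, and CG4611 kept it but passed 1.5-fold in 5 of 7.

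Between the early pairs and 168 hr the difference itself changed, by limma, for 824 probesets upward (9.49%) and 652 downward (7.51%), 8 of the 15 included. GstE9, Pfk, CG7841, CG10802 and ImpL3 moved on in the early direction. GstE9 went from a mean of 1.19 to 5.60 (change 4.41, adjusted p = 0.00745 by limma) and ImpL3 from 1.84 to 5.16 (change 3.31, adjusted p = 0.0430), while CG44014 fell further, from -0.62 to -1.70 (change -1.08, adjusted p = 0.0361). ImpL3 differed by 7.02, 5.12 and 3.33 at 168 hr in experiments 1, 2 and 3. Its lowest GFP signal over all times was 9.60, the lowest value of the table, so the size of its later differences is uncertain. Nup50, CG8745, Gdh and unc-13 did not pass for a change (adjusted p of 0.0546 to 0.0676). Pgk, Pabp2 and CG4611 did not pass either, with changes of 0.15, -0.16 and -0.14. In experiments 2 and 3 the difference of Pgk was largest at 72 hr, with -1.80 and -1.92, against -1.07 and -1.46 at 168 hr, whereas in experiment 1 it was -0.77 at 48 hr and -1.53 at 168 hr.

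Others moved back. CG4872 went from 0.91 to 0.14 at 168 hr (change -0.77, adjusted p = 0.0325 by limma), with 0.01, -0.04 and 0.46 in the 3 experiments and with 1.03 and 0.77 still at 96 hr. tinc went from -0.87 to 0.64 (change 1.51, adjusted p = 0.0252), so its probeset was lower early and higher late in all 3 experiments, at signals near the minimum of 100 (median of the 10 GFP arrays 90.3). These calls rest on all 3 experiments. Without experiment 2 no probeset was called for a change, without experiment 1 there were 42 and 29, and without experiment 3 there were 33 and 18. For tinc the adjusted p was 0.0535, 0.133 and 0.0708 without experiment 1, 2 or 3, and for CG4872 it was 0.116, 0.173 and 0.0579. For GstE9 it was 0.0240, 0.102 and 0.0480, for Pfk 0.0551, 0.102 and 0.0570, for CG7841 0.0540, 0.102 and 0.0480, for CG10802 0.0607, 0.136 and 0.0598, for CG44014 0.128, 0.200 and 0.0480, and for ImpL3 0.0876, 0.208 and 0.0579.

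**Figure D4:**
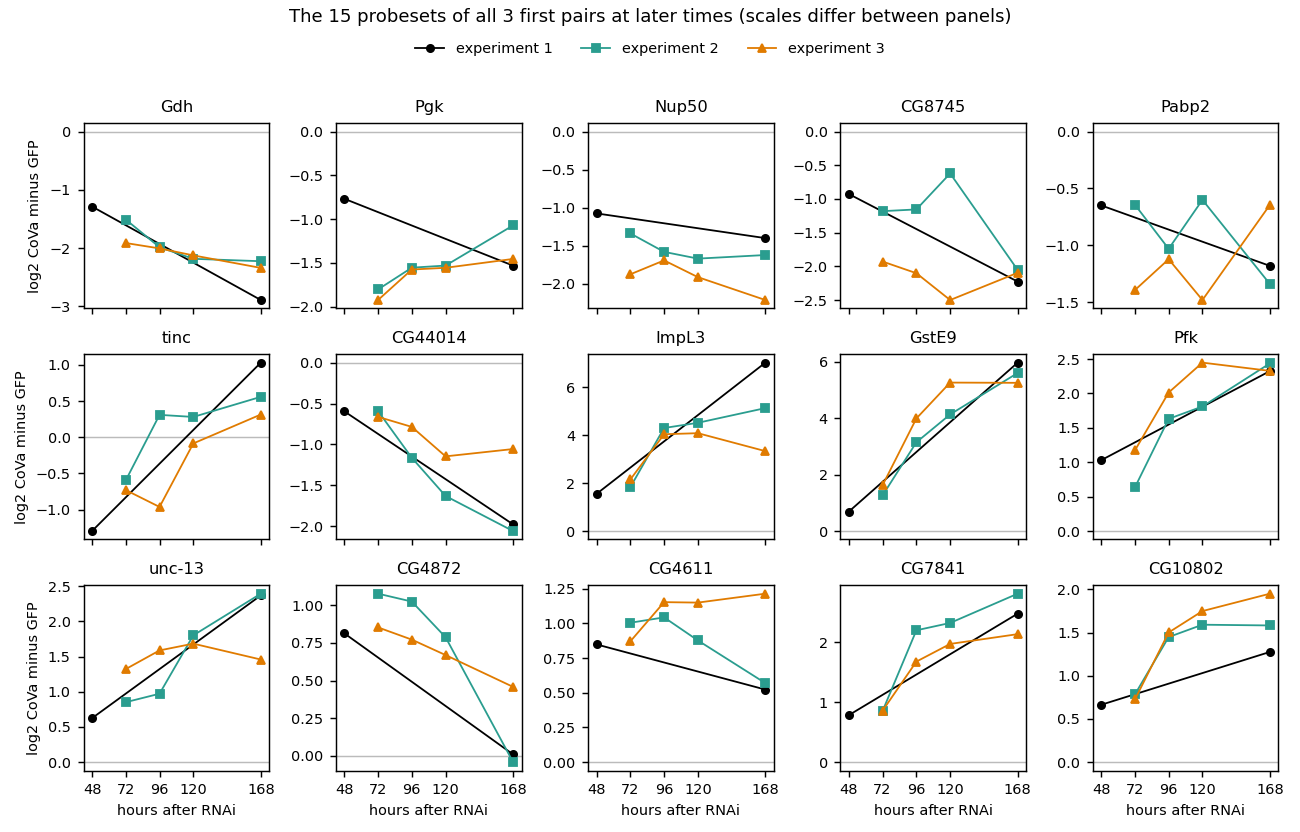
Log2 difference (arrays labelled CoVa RNAi minus GFP RNAi, linear axis that differs between panels, hours after RNAi on the horizontal axis) of the 15 probesets in experiment 1 (circles), 2 (squares) and 3 (triangles), with the early pair at 48 or 72 hr as the leftmost point. GstE9 climbed to between 5.25 and 5.97 at 168 hr, CG4872 came back to 0.14 on average and tinc crossed from below to above 0.

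The untransfected array of experiment 1 at 48 hr, with no replicate, shows how far the GFP control and the array labelled CoVa RNAi each lay from cells without transfection. For Gdh the GFP array differed little from it (untransfected minus GFP 0.13 on the log2 scale), and the array labelled CoVa RNAi was lower than it by 1.42. For ImpL3 these values were 0.06 and 1.49 upward, for Nup50 -0.13 and 0.95 downward, and for CG7841 -0.37 and 1.15 upward. For CG4611 and CG4872 most of the distance lay between the untransfected and the GFP array (0.71 and 0.65), and the array labelled CoVa RNAi was above the untransfected one by 0.14 and 0.16. For tinc the GFP array was above the untransfected array by 0.78.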

How the data were processed

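Drosophila S2 cells were profiled on Affymetrix Drosophila Genome 2 arrays. The deposited values are intensity signals, 1 per probeset, which the authors obtained with GCOS and normalized with dChip, the array of median brightness being the baseline. MAS5 is named in the submitters' processing notes, and a genome build is not given in the sources used here. Of 18952 probesets, 183 controls served only for the RNA integrity ratios. Of the 18769 used, 13646 took 1 gene name from the platform annotation and 9, without a gene there, from the article's gene table, 402 had several and 4712 none. Probesets with a signal of at least 100 on at least 3 of the 6 arrays (8685) were tested as log2(signal + 32) in limma 3.58.1 (R 4.3.3), with the experiment as a block, empirical Bayes moderation (2 residual and 3.03 prior degrees of freedom) and Benjamini-Hochberg adjustment over all 8685. The block follows the time-course number and shared time in the labels. Deviations of the paired arrays from their group means correlated at 0.868, 0.923 and 0.966. With 3 arrays per group and experiment 3 apart, these values cannot check which arrays of experiments 1 and 2 belong together. The change to 168 hr was fitted on the early and 168 hr arrays. Genes named are CoVa, up to 12 probesets in each direction that passed 1.5-fold in all 3 pairs, the 22 genes of the article and the leading 2 to 4 members of each list. Outside that rule, the remaining measured glycolysis genes, UGP, CG10508 and btn are named, with their values known. Members and lists were chosen with earlier results of these data known. The alternatives were scaling, added value, filter, 1 probeset per gene, variance estimate, block, arrays in the fit, the methods' t-test and leaving out each experiment. Scripts were tested on simulated data. For arrays, depth is not counted, and their number limits the precision.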

Additional observations from a re-analysis of the deposited data

Results flagged for a closer look

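The CoVa transcript was singled out because the labelled 48 hr array was higher than its GFP partner (0.19 on the log2 scale) while both 72 hr pairs were lower, a difference between times that was not tested, and because the difference changed by -1.54 to 168 hr (limma, adjusted p = 0.0403).

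For the other results below the difference between the arrays labelled CoVa RNAi and their GFP partners changed from the early pairs to 168 hr at an adjusted p under 0.05 by limma. Among the probesets that differed 1.5-fold in every early pair, the changes were 4.41 for GstE9, 3.31 for ImpL3, 1.64 for CG7841, 1.42 for Pfk, 0.88 for CG10802, 1.51 for tinc, -0.77 for CG4872 and -1.08 for CG44014. Among the other genes named, they were 3.46 for Cyp6a23, 2.66 for the trehalose transporter Tret1-1, 2.41 and 2.49 for the 2 probesets of CG30022, 2.40 for the brighter probeset that the annotation gives to GstE9 and the study's table to GstE8, 2.20 for Ugt302C1, 1.97 for JhI-26, 1.78 for Cyp9c1, 1.69 for Tpc1, 1.48 for Cyp4e2, 1.45 for Alr, 1.43 for Naprt, 1.06 for CG2017 and -2.32 for CG4829. The arrays labelled 168 hr come from the same 3 experiments as the early ones, and the study chose several of these genes on all times. For the probesets chosen at 1.5-fold, the change contains the early differences of that choice, which favours moves toward 0.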

How the results depend on the processing

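The early calls by limma, 0 higher and 0 lower, became 32 and 36 with arrays scaled to a common median (where the prior degrees of freedom rose from 3.03 to 10.1), 5 and 1 with a variance trend, 18 and 6 with all 20 arrays, and 93 and 62 by the methods' t-test unadjusted, which gave 0 and 0 after Benjamini-Hochberg. All other alternatives run gave 0 and 0, the fit with no replicate block included, and the cause of the differences was not tested. Of the probesets past 1.5-fold in all pairs, 8 higher and 7 lower, there were 1 and 2 at 2-fold and 43 and 48 at a ratio of 5 to 4 per pair. The lower count was 4 with 64 added before log2 and 4 with 1 probeset per gene. Leaving out an experiment gave 10 to 28 higher and 7 to 17 lower. The changes to 168 hr, 824 higher and 652 lower, were 86 and 56 with no replicate block, and 0 to 42 and 0 to 29 when an experiment was left out. With fewer arrays per fit, fewer calls are possible. Differences of named genes that turned direction when an experiment was left out ranged from -0.049 to 0.50 for puc, from -0.066 to 0.35 for sima, from -0.40 to 0.93 for Hsp26, from -0.017 to 0.33 for Dcr-2 and from -0.21 to 0.018 for scyl. Experiment 3 was the one left out in the first 4 and experiment 2 in scyl. Of the other 1100 values of named genes under the alternatives, 1060 kept direction and side of the threshold and 40 passed it only under the alternative. These 40 came from the common median (23), all 20 arrays (11) and the variance trend (6). Since the main fit and most alternatives called no probeset, keeping the side was nearly fixed beforehand and says little about these genes. The number of arrays and signals near background limit the precision.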
